A study of Sus scrofa with 16 samples.

Results

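The genes described here code for the subunits, activators, inhibitor and assembly chaperones of the proteasome. They were taken as all probe sets of the array whose single gene symbol begins with PSMA, PSMB, PSMC, PSMD, PSME, PSMF or PSMG. This gave 40 genes on 46 probe sets, out of 6765 genes with a single symbol on 10069 probe sets, in a table of 24123 probe sets. PSMC2 and PSMD11 had 3 probe sets each, PSMD1 and PSMF1 had 2 each, and the other genes had 1. No probe set with a single symbol was found for 8 further genes of the complex, namely PSMA8, PSMB9, PSMB11, PSMC4, PSMD7, PSMD9, PSMG2 and PSMG4. All 46 probe sets passed the filter on low values, and all lay above a log2 value of 4 on every array, with PSMB8 in psoas the lowest at 4.63.

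The proteasome is the main protease of the cytosol and nucleus for proteins tagged with ubiquitin. Its 20S core is a barrel of alpha rings, which form the gate, and beta rings, which carry the cutting sites, and its 19S cap binds ubiquitin chains, unfolds the substrate with a ring of ATPases and threads it into the core. Interferons and other immune signals replace the constitutive cutting subunits by inducible ones, which form the immunoproteasome. In skeletal muscle the ubiquitin-proteasome route takes part in the turnover of contractile proteins and in muscle wasting.

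Expression had been measured on Affymetrix porcine arrays in diaphragm, the main breathing muscle, and in psoas major, a muscle beside the lumbar spine, of 8 Iberian pigs aged 211 days at slaughter. Animals 1 and 4 were males and animals 6 and 7 females on the high feeding level, and animals 2 and 3 were males and animals 5 and 8 females under 20% restriction. Both muscles of an animal were hybridised, 1 array each, which made 2 arrays for each of the 8 combinations of muscle, sex and feeding level, and all animals ate the same type of pelleted feed. The sources used here give neither the start of the restriction nor whether males were castrated.

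On each array 11107 to 11243 probe sets reached a log2 value of 4. Arrays of 1 muscle correlated at 0.984 to 0.995 over all probe sets, and no 2 arrays held identical values. Of 11 listed genes of all skeletal muscle, 7 were tested, and their mean level lay between 13.41 and 13.69 in diaphragm and between 13.42 and 13.64 in psoas. The difference between the 3' and 5' probe sets of the actin control, a sign of RNA quality, was 4.07 to 4.33 in the diaphragm arrays of animals 1, 2, 3 and 5 and 3.35 to 3.49 in those of animals 4, 6, 7 and 8. In psoas it lay between 3.07 and 3.85. All values below are log2, and the number of arrays limits their precision.

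The first comparison set psoas against diaphragm over the 16 arrays, in a fit that did not use the pairing by animal. Most proteasome genes were near the same level in both muscles, and 7 of 46 probe sets passed the threshold of an adjusted p under 0.05 in limma, where 27.0% of all 11467 tested probe sets passed. PSME3, PSMD8, PSMG1 and PSMB6 were higher in psoas, and PSMB3, PSMB8 and PSMB10 were higher in diaphragm. The share of proteasome probe sets called, 15.2%, lay below that of all tested probe sets, of which 14.6% were called higher and 12.4% lower in psoas. With no filter on low values the shares were 10.9% of the 46 and 10.3% of all 23999. The difference was positive (higher in psoas) for 31 of the 46 and negative for 15, with a median of 0.06, against a median of 0.02 over all tested probe sets, of which 47.4% were negative. At an unadjusted p under 0.05 there were 9 of the 46, where 39.7% of all tested probe sets passed. With animals 4, 6, 7 and 8 alone, whose diaphragm arrays had the lower actin differences, limma called 0 of the 46 (4 at an unadjusted p under 0.05) and 405 of all 11467 (3.53%).

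**Figure D1:**
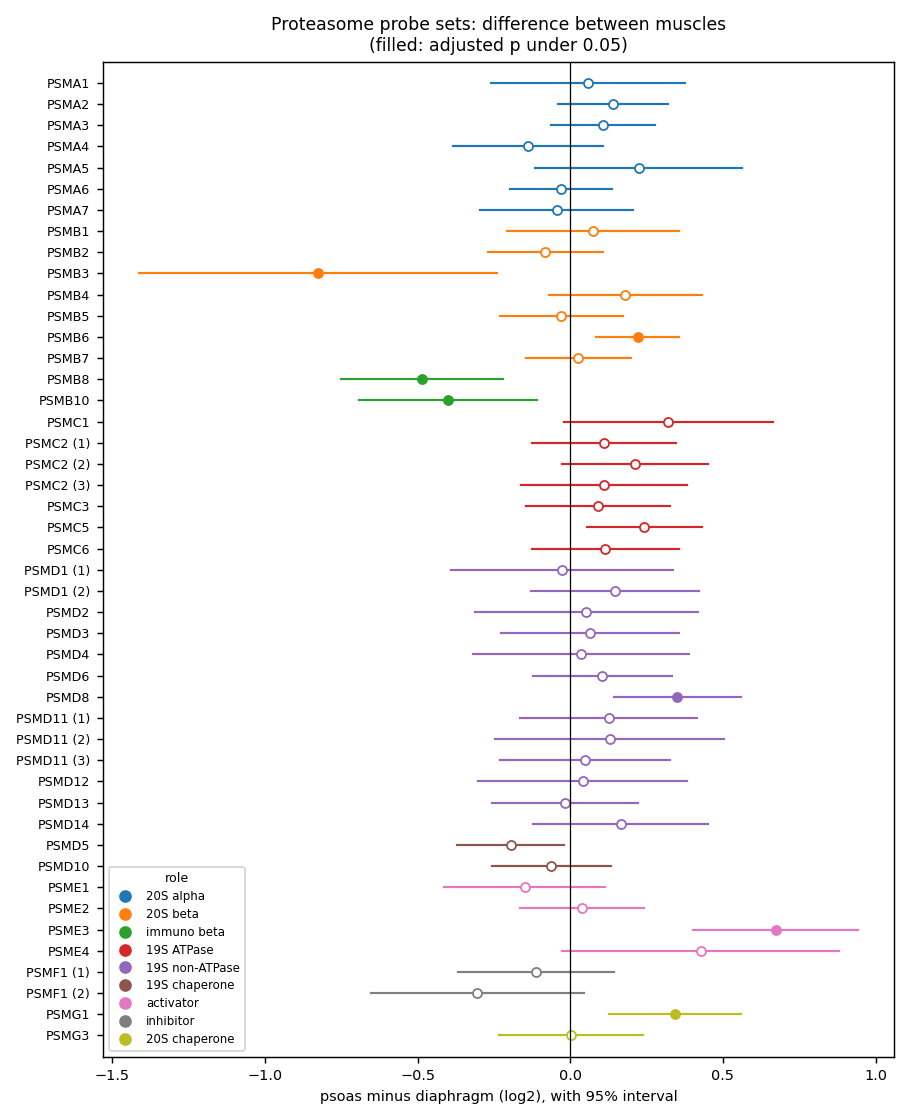
Psoas minus diaphragm difference (x axis, log2) of each of the 46 proteasome probe sets, ordered and coloured by role, with its 95% interval from limma over 8 animals with 1 array per muscle; filled points passed an adjusted p under 0.05, and numbers in brackets tell probe sets of 1 gene apart. The 7 filled points run from PSMB3 at -0.83 to PSME3 at 0.67, and most open points lie close to 0.

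The largest called difference toward psoas was that of PSME3. PSME3 codes for PA28 gamma, a nuclear activator that opens the core without a 19S cap. Its lowest, median and highest values were 6.64, 7.03 and 7.42 on the diaphragm arrays and 7.24, 7.52 and 8.27 on the psoas arrays. The ranges overlapped only through the low psoas and high diaphragm arrays, and within every animal the psoas array was the higher, by 0.27 in animal 6 to 1.17 in animal 4. The means were 6.98 ± 0.25 and 7.65 ± 0.36 (SD, n = 8 arrays each), a difference of 0.67 ± 0.13 (SE) or 1.59-fold, with adjusted p = 0.00166. Leaving out any 1 animal did not end this call. With animals 4, 6, 7 and 8 alone the difference was 0.59 (adjusted p = 0.141).

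The other activators were not called. PSME1 and PSME2 code for PA28 alpha and beta, which together form the activator induced by interferon. PSME1 ranged from 6.83 through a median of 6.96 to 7.60 in diaphragm and from 6.60 through 6.90 to 7.28 in psoas, and psoas was the lower array in 6 of 8 animals. Its means were 7.07 ± 0.29 and 6.92 ± 0.23 (SD, n = 8 each), and its difference of -0.15 had a 95% interval from -0.41 to 0.12 (adjusted p = 0.391). PSME2 ranged from 7.28 through 7.48 to 7.74 in diaphragm and from 7.06 through 7.52 to 7.86 in psoas, so that the diaphragm values lay within those of psoas. Its means were 7.48 ± 0.13 and 7.52 ± 0.22, with a difference of 0.04 and an interval from -0.17 to 0.24 (adjusted p = 0.793). PSME4, which codes for the activator PA200, was higher on the psoas array of every animal but varied widely there, from 8.89 to 10.65 in psoas and from 8.68 to 9.70 in diaphragm, and its difference of 0.43 ± 0.21 (SE) did not pass (adjusted p = 0.15). With the animal as a block PSME4 passed, with 2 other probe sets named below.

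The inducible cutting subunits lay on the other side. PSMB8 codes for beta5i, which takes the place of PSMB5 in the immunoproteasome. In animals 1 to 8 it measured 5.93, 5.19, 5.69, 5.39, 5.02, 5.69, 5.77 and 5.46 in diaphragm and 5.53, 4.93, 5.01, 4.99, 4.63, 5.11, 4.87 and 5.19 in psoas. Psoas was the lower array in all 8 animals, by between 0.26 and 0.89, although the ranges of the muscles overlapped. The means were 5.52 ± 0.31 and 5.03 ± 0.26 (SD, n = 8 each), so that PSMB8 was 1.40-fold higher in diaphragm (difference -0.48 ± 0.12 SE, adjusted p = 0.0105). The call held without any 1 animal, and with animals 4, 6, 7 and 8 alone the difference was -0.53 (adjusted p = 0.0749).

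PSMB10 codes for beta2i, which replaces PSMB7. It ranged from 5.71 through a median of 5.96 to 6.52 in diaphragm and from 5.02 through 5.60 to 5.99 in psoas. Psoas was lower in 7 of 8 animals, and in animal 5 it was the higher. The means were 5.99 ± 0.25 and 5.59 ± 0.31, a 1.32-fold higher level in diaphragm (difference -0.40 ± 0.14 SE, adjusted p = 0.0422). This call was lost without animal 2, 3, 4, 6, 7 or 8 (adjusted p = 0.0516, 0.0922, 0.0733, 0.0673, 0.0686 and 0.0848). It held without animal 1 or 5.

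The constitutive subunits that these 2 replace were not called. PSMB5, the chymotrypsin-like subunit, differed by -0.03, with a 95% interval from -0.23 to 0.17 (adjusted p = 0.84). PSMB7, the trypsin-like subunit, differed by 0.03, with an interval from -0.15 to 0.20 (adjusted p = 0.836). Set within the same array, PSMB8 minus PSMB5 was lower in psoas by an average of 0.45 ± 0.42 (SD) and in 7 of 8 animals, and PSMB10 minus PSMB7 by 0.43 ± 0.29, also in 7 of 8. In animal 5 the pair differences between the muscles were 0.01 and 0.12. An exact two-sided sign-flip permutation test over the 8 animals gave p = 0.0156 for each pair (0.0156 adjusted over both), where the smallest p it can give is 0.00781. The pairs were chosen after the values were seen, with PSMB8 and PSMB10 already called between the same arrays, so these p-values are no independent support.

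Genes of antigen processing, of the interferon response and of other cell types were measured beside the inducible subunits. Of all 4571 tested genes 29.5% were called between the muscles, which is the share to set beside these lists. Of 34 listed genes of antigen processing and the interferon response, 20 were tested, and 7 were called lower and 0 higher in psoas, and 13 were not called. Differences were negative for 17 of 20, with a list median of -0.45. The called genes included UBD, a ubiquitin-like modifier induced by interferon (-1.22 ± 0.19 SE, adjusted p = 4.1e-04), GBP2, an interferon-induced guanylate-binding protein (-0.87), and the class I antigen genes SLA-3 (-0.68) and SLA-2 (-0.64). TAP1, the peptide transporter, differed by -0.27 (adjusted p = 0.114) and B2M, the light chain of class I molecules, by 0.06 (adjusted p = 0.763). The list's mean level ran from 7.11 to 7.74 in diaphragm and from 6.57 to 7.29 in psoas and was lower in psoas in all 8 animals.

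Of 33 listed markers of immune cells, 13 were tested, 9 were called lower in psoas, 0 higher and 4 were not called, with a median of -0.70. Their mean level was 6.48 to 7.73 in diaphragm and 5.98 to 6.73 in psoas, lower in psoas in all 8 animals, and none of the 13 lay below 4 throughout either muscle. Endothelial markers were lower in psoas for 7 of 8 tested, with a mean level of 7.13 to 7.70 in diaphragm and 6.52 to 7.02 in psoas. Of 10 tested fibroblast and matrix markers 6 were lower and 1 higher in psoas, with a mean level of 8.21 to 8.94 in diaphragm and 7.68 to 8.39 in psoas. Of 4 tested adipocyte markers 3 were lower, at 8.28 to 9.79 in diaphragm and 7.58 to 8.01 in psoas. Of 13 hepatocyte markers with a probe set, 7 passed the filter on low values and were tested. All 7 were called lower in psoas, with a mean level of 3.64 to 7.93 in diaphragm and 3.13 to 3.78 in psoas. For 5 of the 7 no psoas value reached 4, so only diaphragm values could carry them through the filter. That favoured a lower value in psoas, and the count of 7 cannot show a direction for those 5. The filter acted alike on 1 fibroblast and matrix marker and 1 adipocyte marker. Genes of the fibre types differed as well. Of 9 tested slow fibre genes 6 were lower and 0 higher in psoas, with a median of -0.26, while MYH7, the slow myosin heavy chain, was not called (-0.16, adjusted p = 0.0966). Of 8 tested fast fibre genes 6 were higher and 0 lower, with a median of 0.32, and MYH2, a fast myosin heavy chain, had the largest difference of the 8 (2.74 ± 0.14 SE, adjusted p = 3.84e-09). The mean level of the slow list was lower in psoas in all 8 animals and that of the fast list higher in all 8, while 7 tested genes shared by both fibre types had a median of 0.01 with 1 higher and 1 lower. The part of other cell types and of fibre types in the differences of the proteasome genes was not tested. In these whole-muscle samples fewer cells of a type and less RNA per cell cannot be told apart.

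**Figure D2:**
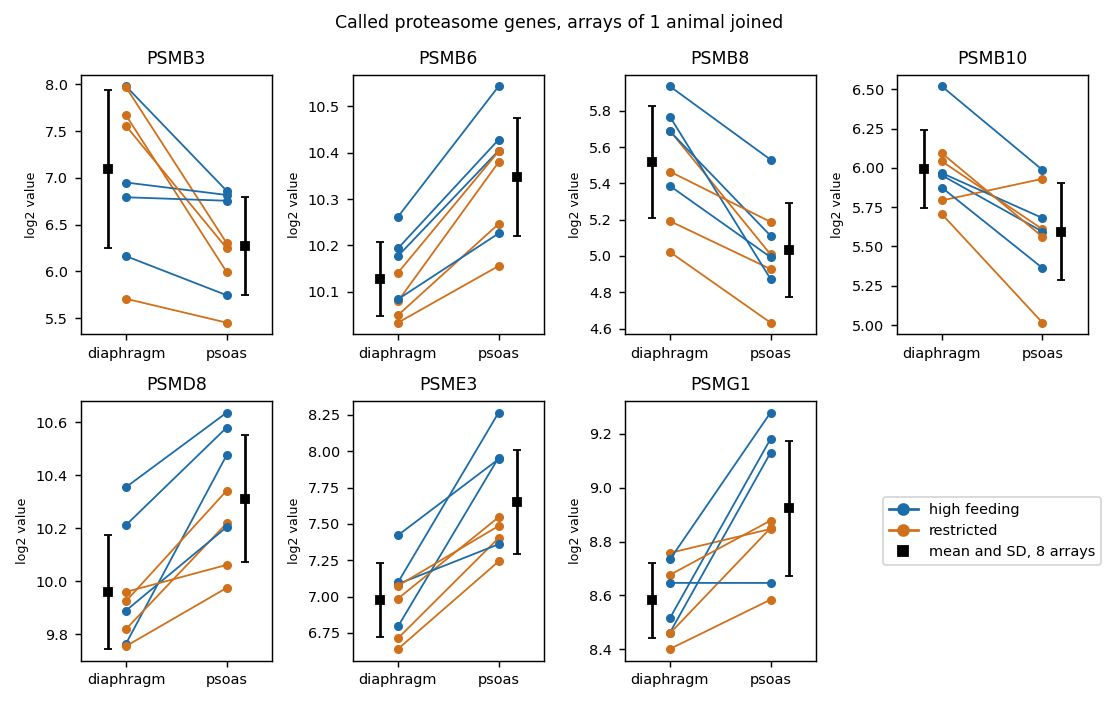
Deposited log2 values (y axis, a scale of its own per panel) of the 7 proteasome genes called between the muscles, with the 2 arrays of each of 8 animals joined and coloured by feeding level; black squares and bars give the mean and SD of 8 arrays. Lines slope up toward psoas for PSME3, PSMD8 and PSMB6 and down for PSMB8 and PSMB3 in all 8 animals, and in PSMB3 the 4 steep lines start at 7.55 to 7.98.

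Among the constitutive beta subunits 1 was called higher and 1 lower in psoas, of 7 measured, where 27.0% of all tested probe sets were called. PSMB6 codes for beta1, the caspase-like cutting subunit. It ranged from 10.03 through 10.11 to 10.26 in diaphragm and from 10.16 through 10.39 to 10.54 in psoas. Psoas was the higher array in all 8 animals, and the spread was small in both muscles. The means were 10.13 ± 0.08 and 10.35 ± 0.13 (SD, n = 8 each), a difference of 0.22 ± 0.06 (SE) or 1.17-fold (adjusted p = 0.0192). Without animal 3 the adjusted p was 0.0522.

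PSMB3 codes for beta3, a structural subunit with no cutting site. It ranged from 5.71 through 7.25 to 7.98 in diaphragm and from 5.45 through 6.28 to 6.86 in psoas. The means were 7.10 ± 0.84 and 6.27 ± 0.52, with PSMB3 1.77-fold higher in diaphragm (difference -0.83 ± 0.28 SE, adjusted p = 0.0380) and psoas lower in 8 of 8 animals. The size of the difference fell into separate ranges that followed the actin control. In animals 1, 2, 3 and 5, whose diaphragm arrays had the higher actin 3' to 5' difference, diaphragm PSMB3 was 7.55 to 7.98 and psoas lower by 1.12 to 1.67. In animals 4, 6, 7 and 8 diaphragm PSMB3 was 5.71 to 6.95, and psoas was lower by 0.04 to 0.42. With the actin difference as a covariate PSMB3 differed by -0.32 (adjusted p = 0.18), and with animals 4, 6, 7 and 8 alone by -0.21 (adjusted p = 0.638). The call was also lost without animal 1, 2, 3 or 5 (adjusted p = 0.0767, 0.113, 0.117 and 0.0503). The part of RNA quality in this difference was not tested beyond these fits.

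The alpha ring, which gates the core, had 7 probe sets and 0 calls between the muscles in limma, also 0 at an unadjusted p under 0.05. Of all tested probe sets 27.0% were called and 39.7% had an unadjusted p under 0.05. The differences ran from -0.14 for PSMA4 to 0.22 for PSMA5, with a median of 0.06, and 4 of 7 were positive.

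In the 19S cap 1 of 20 probe sets was called, where 27.0% of all tested probe sets were. The called probe set was that of PSMD8, a subunit of the lid, the part of the cap that removes the ubiquitin chain. PSMD8 ranged from 9.76 through 9.91 to 10.35 in diaphragm and from 9.97 through 10.28 to 10.64 in psoas, and psoas was the higher array in all 8 animals. The means were 9.96 ± 0.22 and 10.31 ± 0.24, a difference of 0.35 ± 0.10 (SE) or 1.28-fold (adjusted p = 0.0163). Leaving out any 1 animal did not end this call, and with the actin difference as a covariate it was 0.29 (adjusted p = 0.0761).

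The base ATPases, the unfolding motor of the cap, had 0 calls among 7 probe sets in limma (1 at an unadjusted p under 0.05). The shares over all tested probe sets were 27.0% and 39.7%. Differences of the ATPases were positive in all 7, from 0.09 for PSMC3 to 0.32 for PSMC1. PSMC5 came closest, at 10.57 ± 0.19 in diaphragm and 10.81 ± 0.12 in psoas, higher in psoas in 8 of 8 animals (0.24 ± 0.09 SE, adjusted p = 0.0542). It passed with the animal as a block. The 12 other probe sets of non-ATPase subunits differed by -0.03 to 0.17, and 10 of these were positive.

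The chaperones that build the cap had negative differences. PSMD5, a chaperone of the ATPase ring, was lower in psoas in 8 of 8 animals (-0.20 ± 0.08 SE, adjusted p = 0.093) and passed with the animal as a block. PSMD10, also known as gankyrin, differed by -0.06 (adjusted p = 0.649). PSMF1, known as the inhibitor PI31, had differences of -0.11 and -0.30 at its 2 probe sets (adjusted p = 0.514 and 0.181).

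Of the chaperones of the core, PSMG1 was called and PSMG3 was not. PSMG1, which helps to assemble the alpha ring, ranged from 8.40 through 8.58 to 8.76 in diaphragm and from 8.58 through 8.86 to 9.28 in psoas. Psoas was higher in 7 of 8 animals, with both arrays of animal 6 at 8.65. The means were 8.58 ± 0.14 and 8.92 ± 0.25, a difference of 0.34 ± 0.10 (SE) or 1.27-fold (adjusted p = 0.0217). The call was lost without animal 1, 2 or 4 (adjusted p = 0.062, 0.0578 and 0.0673). PSMG3 differed by 0.00 with an interval from -0.23 to 0.24 (adjusted p = 0.991).

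Without animal 2, and without animal 3, limma called 4 of the 46 probe sets (8.70%) between the muscles, and the share of all tested probe sets called fell alongside, to 19.6% and 18.9%. No proteasome probe set had 8 psoas arrays wholly apart from its 8 diaphragm arrays, where 2.08% of all tested probe sets were wholly higher and 1.63% wholly lower. Within animals, 5 of the 46 were higher in psoas in 8 of 8 (PSMB6, PSMC5, PSMD8, PSME3 and PSME4) and 3 were lower (PSMB3, PSMB8 and PSMD5). The shares over all tested probe sets were 11.7% and 9.71%.

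Genes that work with the proteasome were measured beside it. Of 59 listed genes of the ubiquitin system and proteasome partners, 31 were tested, and 9 were called higher and 2 lower in psoas, with a median of 0.15. That made 35.5% called, against 29.5% of all 4571 tested genes. SEM1, a small lid subunit of the cap without a PSM symbol, was higher in psoas (0.54 ± 0.09 SE, adjusted p = 0.00104). The ubiquitin-conjugating enzymes UBE2K (0.67), UBE2L3 (0.42), UBE2D3 (0.31), UBE2D2 (0.29) and UBE2R2 (0.27) and the noncatalytic partner UBE2V1 (0.32) were also higher, as was NEDD8, a ubiquitin-like modifier (0.31). The ubiquitin gene UBB was lower in psoas (-0.20), and so was UBE2B (-0.18).

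Among 11 tested ubiquitin ligases and deubiquitinases of muscle, 4 were called higher and 1 lower in psoas (45.5%, against 29.5% of all tested genes). TRIM55, a ligase at the sarcomere (0.58 ± 0.18 SE, adjusted p = 0.0256), FBXO31 (0.44), WWP1 (0.42) and the deubiquitinase USP28 (0.34) were higher, and FBXO21 was lower (-0.32). FBXO32, the muscle ligase atrogin-1, differed by -0.52 (adjusted p = 0.116).

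The muscles were then compared within each feeding level, on 4 animals each. At high feeding limma called 0 of the 46 probe sets (5 at an unadjusted p under 0.05), where 1.67% of all were called and 20.6% had an unadjusted p under 0.05. The sign was negative for 10 of the 46 and 46.5% of all. The smallest p-values were those of PSME3 (0.78 ± 0.22 SE, adjusted p = 0.112), PSMB8 (-0.57 ± 0.18, adjusted p = 0.145) and PSMG1 (0.47 ± 0.16, adjusted p = 0.168). In animals 1, 4, 6 and 7 PSME3 measured 6.79, 7.10, 7.09 and 7.42 in diaphragm and 7.96, 8.27, 7.36 and 7.95 in psoas, where animal 6 lay below the highest diaphragm array. PSMG1 measured 8.46, 8.52, 8.65 and 8.73 in diaphragm and 9.13, 9.18, 8.65 and 9.28 in psoas, again with animal 6 inside the diaphragm range. The median of the 46 was 0.17.

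Under restriction 1 probe set, that of PSME3, was called, against 12.1% of all. Its diaphragm arrays measured 6.71, 6.99, 6.64 and 7.07 in animals 2, 3, 5 and 8, and its psoas arrays 7.40, 7.55, 7.24 and 7.49. All 4 psoas arrays lay above all 4 diaphragm arrays, and the difference was 0.57 ± 0.13 (SE, adjusted p = 0.0332). Without animal 2, 3 or 5 the adjusted p was 0.147, 0.132 and 0.0652, and with the actin difference as a covariate PSME3 differed by 0.29 (adjusted p = 0.241). PSMB6 and PSMD8 also had psoas arrays wholly above the diaphragm arrays, as had 11.0% of all tested probe sets, and were not called (adjusted p = 0.156 and 0.106). The median of the 46 was -0.03, and 27 were negative (58.7%), against 48.5% of all.

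The second comparison set restricted animals against animals on high feeding, with each animal the mean of its 2 arrays. Limma called 0 of the 46 probe sets, as it called 0 of all 11467 (0% of them). The smallest adjusted p of a proteasome probe set was 0.287. At an unadjusted p under 0.05, 7 of the 46 were lower and 0 higher under restriction, where 7.26% of all tested probe sets were lower and 5.39% higher. The difference was negative for 41 of 46 (89.1%), against 54.0% of all tested probe sets, and its median was -0.23 against -0.02. By gene, with the probe set of highest mean for each, 35 of 40 (87.5%) were negative, against 61.1% of all 4571 tested genes. The medians by gene were -0.20 and -0.05, and 15.0% and 9.60% were lower at an unadjusted p under 0.05. These 46 values come from the same 8 animals and are not independent of each other. Without animal 7 the median was -0.12 with 38 of 46 negative, and without animal 6 it was -0.31.

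PSMG3, an assembly chaperone of the core, had the smallest p. Its animal means were 6.38, 6.48, 6.48 and 6.40 in animals 1, 4, 6 and 7 on high feeding and 6.21, 6.06, 6.14 and 6.20 in animals 2, 3, 5 and 8 under restriction. All restricted animals lay below all others, the only such case among the 46, where 3.31% of all tested probe sets were wholly lower and 2.66% wholly higher. The difference was -0.28 ± 0.08 (SE), with adjusted p = 0.287.

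PSMD1, the scaffold subunit that holds ubiquitin receptors in the cap, followed. At its probe set of smaller p the animal means were 10.73, 10.80, 10.32 and 10.93 on high feeding and 10.33, 10.44, 9.75 and 10.30 under restriction. Animal 6 lay among the restricted animals, and the other 3 animals on high feeding lay above all of them. The group means were 10.70 ± 0.27 and 10.21 ± 0.31 (SD, n = 4), a difference of -0.49 ± 0.17 (SE, adjusted p = 0.334). PSMF1 measured 7.25, 7.62, 7.81 and 7.81 on high feeding and 7.13, 7.29, 7.46 and 7.46 under restriction at the probe set of smaller p, with animal 1 among the restricted animals (-0.29 ± 0.10 SE, adjusted p = 0.343). PSMD10 (-0.28), PSMD3 (-0.32), PSME3 (-0.35) and 1 probe set of PSMC2 (-0.28) were the others at an unadjusted p under 0.05, with adjusted p = 0.354, 0.358, 0.363 and 0.38.

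By role, the negative sign held for 13 of 13 probe sets of non-ATPase cap subunits (median -0.30), 7 of 7 of the alpha ring (-0.17), 7 of 7 of the constitutive beta ring (-0.17) and 5 of 7 of the ATPases (-0.25). The inducible subunits PSMB8 (-0.27 ± 0.16 SE, adjusted p = 0.509) and PSMB10 (-0.15 ± 0.17, adjusted p = 0.749) were negative too. The 5 positive values belonged to PSMD5 (0.12), PSME1 (0.11), PSME2 (0.07), PSMC6 (0.03) and PSMC5 (0.02), all with adjusted p of 0.68 or more. For PSME1 the 95% interval ran from -0.22 to 0.45 and for PSME2 from -0.21 to 0.34.

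**Figure D3:**
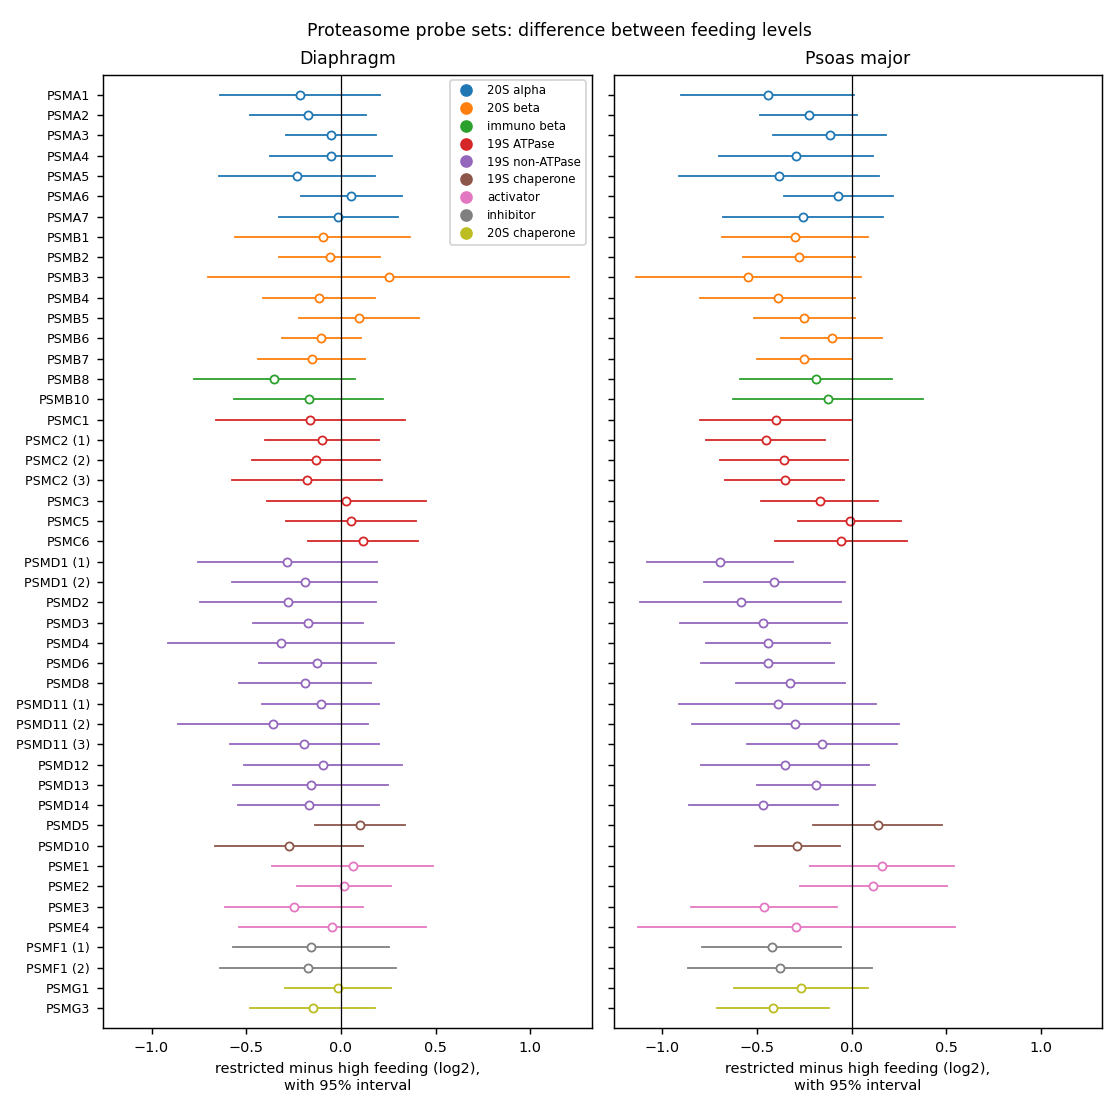
Restricted minus high feeding difference (x axis, log2) of each of the 46 proteasome probe sets in diaphragm (left) and psoas (right), coloured by role, with the 95% interval from limma over 4 animals per feeding level. None passed an adjusted p under 0.05, 37 points lie left of 0 in diaphragm and 43 in psoas, and the 13 probe sets of non-ATPase cap subunits have a median of -0.41 in psoas and -0.19 in diaphragm.

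Within psoas limma again called 0 of 46 (0% of all tested probe sets were called). At an unadjusted p under 0.05 16 of 46 (34.8%) were lower under restriction and 0 higher, where 6.78% of all tested probe sets were lower and 4.48% higher. The 16 were 8 probe sets of non-ATPase cap subunits, 4 of ATPases and those of PSMD10, PSME3, PSMG3 and 1 of PSMF1. By gene, 13 of 40 were lower at an unadjusted p under 0.05, against 8.90% of all 4571 tested genes. The sign was negative for 37 of the 40 genes, against 59.5% of all genes. By probe set it was negative for 43 of 46, against 53.9% of all, and the median was -0.30 against -0.02. Leaving out each animal moved this median between -0.42 (without animal 6) and -0.21 (without animal 7).

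Psoas PSMD1 measured 11.11, 10.93, 10.32 and 10.78 in animals 1, 4, 6 and 7 on high feeding and 10.48, 10.51, 9.42 and 9.94 in animals 2, 3, 5 and 8. The means were 10.79 ± 0.34 and 10.09 ± 0.52 (SD, n = 4), and the groups overlapped through animal 6. The difference was -0.70 ± 0.17 (SE), with adjusted p = 0.321, and the other probe set of PSMD1 gave -0.41 (adjusted p = 0.407).

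PSMC2, an ATPase of the base, measured 11.07, 11.00, 10.48 and 11.01 on high feeding and 10.65, 10.48, 10.38 and 10.22 under restriction at its probe set of smallest p. Here too animal 6 lay among the restricted animals, and the difference was -0.45 ± 0.14 (SE, adjusted p = 0.333). Psoas PSMG3 measured 6.55, 6.57, 6.31 and 6.58 against 6.38, 6.07, 6.09 and 5.81, with the same animal 6 inside the restricted range (-0.41 ± 0.13 SE, adjusted p = 0.334). PSMD2, a scaffold that receives ubiquitin shuttle proteins (-0.59), PSMD14, the deubiquitinase of the lid (-0.47), PSMD3 (-0.47), PSMD6 (-0.44) and PSMD4, a ubiquitin receptor (-0.44), had adjusted p of 0.344 to 0.427.

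PSMB5 and PSMD10 were the only probe sets of the 46 whose 4 restricted psoas arrays lay wholly below the other 4, where 2.56% of all tested probe sets did. None of the 46 lay wholly above, as 2.42% of all did. Psoas PSMB5 measured 9.49, 9.70, 9.47 and 9.80 on high feeding and 9.39, 9.44, 9.32 and 9.32 under restriction (-0.25 ± 0.11 SE, adjusted p = 0.471). Psoas PSMD10 measured 5.83, 5.73, 5.57 and 5.71 against 5.54, 5.51, 5.39 and 5.26 (-0.29 ± 0.10, adjusted p = 0.358). The 3 positive psoas values were those of PSME1 (0.16), PSMD5 (0.14) and PSME2 (0.11).

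Within diaphragm limma called 0 of 46 (0% of all), and 0 had an unadjusted p under 0.05, where 9.60% of all tested probe sets passed that level. None of the 46 had feeding groups wholly apart, where 2.69% of all were wholly lower and 2.19% wholly higher. By gene the sign was negative for 31 of 40, against 59.3% of all 4571 tested genes. By probe set it was negative for 37 of 46, against 53.0% of all, with a median of -0.14 against -0.01. The median was -0.03 without animal 7 and -0.08 without animal 5, and -0.03 with the actin difference as a covariate. The actin difference in diaphragm was 3.62 ± 0.44 (SD, n = 4) on high feeding and 3.996 ± 0.43 under restriction, and its part in this median was not tested beyond that covariate. PSMB8 had the smallest p, at 5.93, 5.39, 5.69 and 5.77 on high feeding and 5.19, 5.69, 5.02 and 5.46 under restriction (-0.35 ± 0.18 SE, adjusted p = 0.574). Next came 1 probe set of PSMD11, a lid subunit, at 8.78, 9.19, 9.05 and 9.75 on high feeding and 8.53, 9.02, 8.64 and 9.14 under restriction (-0.36 ± 0.22, adjusted p = 0.61). Diaphragm PSMD10 measured 5.57, 5.80, 5.52 and 6.16 against 5.57, 5.65, 5.27 and 5.46 (-0.28 ± 0.17, adjusted p = 0.613). The feeding groups overlapped in all 3, and animal 7 was the highest array for PSMD11 and PSMD10.

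To ask whether feeding altered the contrast between the muscles, the within-animal difference (psoas minus diaphragm) was compared between the feeding levels. Limma called 0 of 46 and 0% of all. At an unadjusted p under 0.05, 4 of the 46 were lower under restriction and 0 higher, where 3.18% of all were lower and 2.89% higher. The sign was negative for 39 of 46, against 51.9% of all, and the median was -0.21, or -0.14 without animal 8 and -0.15 without animal 3.

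PSMB3 had the smallest p in that test, with a mean psoas minus diaphragm difference of -0.43 at high feeding and -1.23 under restriction (-0.80 ± 0.29 SE, adjusted p = 0.787). Its values of -1.12, -0.13, -0.42 and -0.04 in animals 1, 4, 6 and 7 and of -1.67, -1.67, -1.31 and -0.26 in animals 2, 3, 5 and 8 again divided by the actin control of the diaphragm array and not by feeding level alone. PSMD1 followed, with psoas minus diaphragm at 0.76, 0.26, 0.01 and -0.30 at high feeding and 0.30, 0.14, -0.67 and -0.71 under restriction at 1 probe set (-0.41 ± 0.16, adjusted p = 0.807). Both feeding levels held positive and negative animals. For PSMD6, a lid subunit, psoas minus diaphragm was 0.23, 0.46, 0.14 and 0.23 at high feeding and 0.13, 0.02, -0.17 and -0.20 under restriction. All restricted animals lay below the others, which held for this 1 of the 46 and for 1.44% of all tested probe sets, and the reverse held for 0 of the 46 and 1.55% of all (-0.32 ± 0.13, adjusted p = 0.807).

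The proteasome probe sets moved together from array to array, and the feeding groups were uneven in this. In psoas the median deviation of the 46 from their own 8-array means was 0.22, 0.27 and 0.32 in animals 1, 4 and 7 and -0.20 in animal 6, all on high feeding. It was -0.07, 0.04, -0.27 and -0.25 in animals 2, 3, 5 and 8 under restriction. Animals 7, 4 and 1 were among the 3 highest psoas arrays for 40, 37 and 34 of the 46 probe sets, and animals 8, 5 and 6 among the 3 lowest for 39, 36 and 33. So the high-feeding female of animal 6 sat with the restricted females 5 and 8, and the restricted males 2 and 3 lay between.

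In diaphragm the order was another one. Animal 7 had the highest median deviation, 0.32, and was the highest of the 8 arrays for 28 of the 46 probe sets. Animals 8, 4 and 3 followed at 0.09, 0.07 and 0.03, then animals 6, 1, 2 and 5 at -0.07, -0.08, -0.17 and -0.20. The medians over all tested probe sets lay between -0.03 and 0.03 on every array. Animal 7 was high in both muscles and animal 5 low in both, while animal 8 was above the mean in diaphragm and below it in psoas, and animal 1 the reverse.

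**Figure D4:**
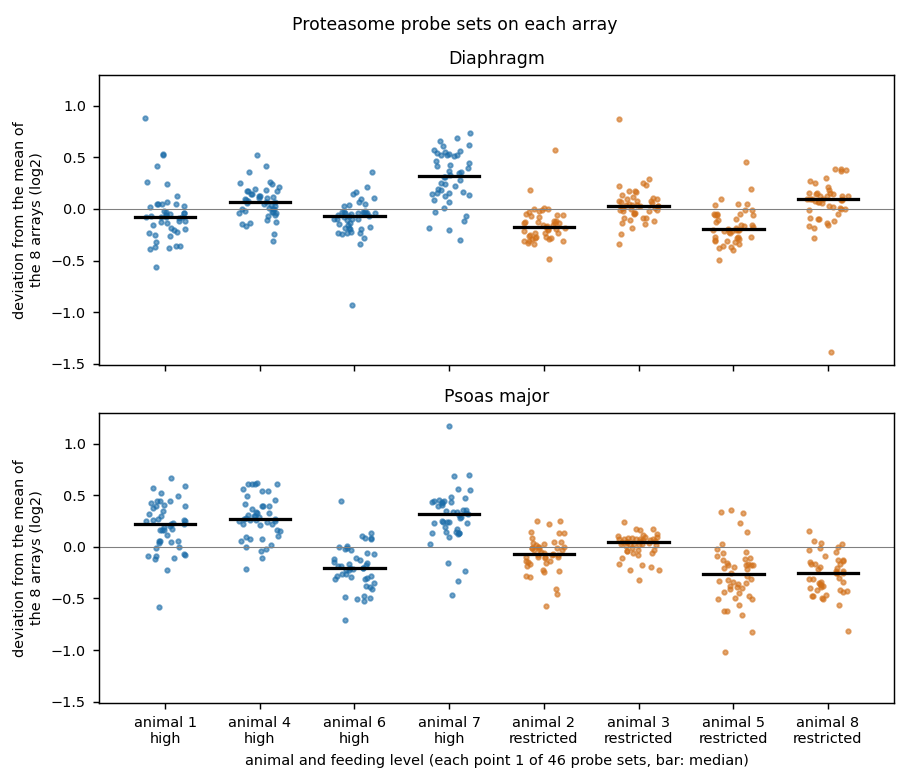
Deviation of each of the 46 proteasome probe sets from its own mean over the 8 arrays of a muscle (y axis, log2), by animal (x axis), for diaphragm (top) and psoas (bottom), with blue points for high feeding, orange for restriction and black bars for the median of an array. The bars of animal 7 are at 0.32 in both muscles, and in psoas animal 6 on high feeding lies at -0.20, beside restricted animals 5 and 8.

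The feeding comparison of the partner lists gave 0 calls, as it did over all tested probe sets. Of all 4571 tested genes 61.1% were negative, with a median of -0.05, which is the share to set beside the lists. Of the 31 tested genes of the ubiquitin system 23 were negative, with a median of -0.10, and of the 11 ligases and deubiquitinases 7 were negative, with a median of -0.02. FBXO32, which is induced in wasting muscle, was -0.37 (adjusted p = 0.63), and FBXL4 was 0.84 (adjusted p = 0.278). The antigen processing and interferon list was negative for 14 of 20 (median -0.19) and the immune cell markers for 11 of 13 (median -0.37). The part of immune cells in the feeding values of PSMB8 and PSMB10 was not tested.

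Between females and males limma called 0 of the 46 probe sets, with 0.183% of all called. At an unadjusted p under 0.05 there were 2 of the 46, and 9.17% of all. They were 1 probe set of PSMF1, with a female minus male difference of 0.31 ± 0.10 (SE, adjusted p = 0.418), and PSMB3, with -0.77 ± 0.30 (adjusted p = 0.517). PSMF1 measured 7.25, 7.13, 7.29 and 7.62 in males 1, 2, 3 and 4 and 7.46, 7.81, 7.81 and 7.46 in females 5, 6, 7 and 8, as means of both muscles. PSMB3 measured 7.42, 6.83, 7.14 and 6.88 in males and 6.90, 5.95, 6.77 and 5.58 in females. The sexes overlapped in both genes, with male 4 within the female range of PSMF1 and female 5 above males 2 and 4 in PSMB3. Males 1, 2 and 3 and female 5 were the animals with the higher actin difference in diaphragm, which the PSMB3 values followed above. The PSMB3 sex difference ran from -1.03 to -0.51 over the alternatives, the actin covariate among them. The part of RNA quality in it was not tested beyond these fits. PSMD14 followed at 10.38, 10.11, 10.31 and 10.71 in males and 9.90, 9.90, 10.55 and 9.95 in females, where female 7 lay within the male range (-0.30 ± 0.15, adjusted p = 0.617). The difference was negative for 38 of 46, against 50.7% of all, with a median of -0.08. Without animal 6 the median was 0.01 and 18 of 46 were negative.

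The 4 genes with several probe sets gave values of 1 sign for feeding but not in every comparison. All 10 of their probe sets were negative for feeding, from -0.18 for 1 of PSMD11 to -0.49 for 1 of PSMD1. Between the muscles their probe sets had the same sign except for PSMD1, with -0.03 and 0.15, and none of the 10 was called. The dependence of the muscle difference on feeding was -0.28, 0.06 and 0.03 at the probe sets of PSMD11. Under restriction PSMD1 gave -0.24 and 0.04 between the muscles. The sex difference of PSMF1 was 0.31 at 1 probe set and 0.02 at the other.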

How the data were processed

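Used here were log2 expression values as deposited by the authors, 1 per probe set and array. The summary method was GCRMA, according to the submitters' processing notes. The sources used here state neither its version nor whether the 16 arrays were summarised jointly. The method corrects background from probe sequence and equalises the distributions of arrays processed together, which removes shifts common to most genes and compresses low values. No further scaling was applied, and all columns of values were used.

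Gene symbols came from the platform annotation, and all 46 proteasome symbols matched the RefSeq gene table of assembly Sscrofa11.1 by gene identifier. The roles were assigned from general knowledge. The files name no genome build, and no coordinates or sequences are given. The proteasome genes, the gene lists and the tests were chosen with earlier results of these data known.

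Probe sets with a log2 value at or above 4 on at least 4 of 16 arrays were tested, without the 124 control probe sets, which left 11467. Linear models were fitted with limma 3.58.1 (lmFit, eBayes; R 4.3.3), p-values were adjusted over all tested probe sets by Benjamini-Hochberg, and probe sets were called at 0.05, and every adjusted p is limma's. Muscles were compared over 16 arrays, adjusting for sex and feeding level, feeding levels and sexes over 8 animals (means of 2 arrays) with the other factor as covariate, and the dependence on feeding over the 8 within-animal differences. Within a muscle or feeding level the fit used 8 arrays with sex as covariate. No main fit of psoas against diaphragm held a term for the animal. Scripts were tested on simulated data, with arrays drawn independently. There the muscle fit called 47% of added changes of 0.5 log2 and 88% of changes of 1. The feeding fit called 34% and 83%, and the fit of the dependence on feeding 0% and 11%. A count of 0 in that last fit cannot tell no change from changes of these sizes. In the feeding fit a count of 0 can likewise miss changes of 0.5 or less. The simulated shares for feeding may be too high, since both arrays of an animal correlated positively over all tested probe sets. The fits within a muscle, within a feeding level and for sex were not simulated. With 1 animal as 1 replicate, 4 animals per feeding level limit the precision.

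Values on every array, values of every animal or ranges were given for genes called in any comparison, for PSMB8, PSMB10, PSME1 and PSME2, and for the 3 genes of smallest p in each comparison without a call. The arrays are paired by animal, per the labels. Residuals of the fit correlated between both arrays of an animal at 0.0724 to 0.257 over all tested probe sets, positive in all 8 animals. Over the 46 proteasome probe sets the correlation ran from -0.226 in animal 2 to 0.343 in animal 7, and was negative in animals 2, 3 and 4. Alternatives were no filter, a stricter filter (5 on at least 8 arrays), quantile normalization, the actin difference as a covariate, no covariates, a trended robust variance, the animal as a block, each animal left out, animals 4, 6, 7 and 8 alone, and the mean over a gene's probe sets. The median over the 46 probe sets under each alternative and the within-array pairs were added after seeing the data.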

Additional observations from a re-analysis of the deposited data

Results flagged for a closer look

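Of 92 groups of 8 arrays and 28 groups of 4 arrays of the proteasome probe sets, 7 and 4 held an array far from the others by Dixon's criterion, which chance alone gives for about 1 in 20 groups. The groups of 4 were formed only for the probe sets of the 3 smallest p-values in each feeding comparison of these arrays. That rate therefore need not hold for them. The probe sets share arrays, so the flagged groups are not separate events. All 7 in groups of 8 were the diaphragm array of animal 7, a female on high feeding, above the other 7. It measured 11.12 for PSMA4 (others 10.52 to 10.78), 9.81 for PSMA5 (9.03 to 9.36), 11.85 for 1 probe set of PSMC2 (11.18 to 11.47) and 10.33 for 1 of PSMD1 (9.59 to 9.93). It measured 11.42 and 7.41 for 2 probe sets of PSMD11 (10.77 to 11.05 and 6.57 to 6.90) and 10.35 for PSMD12 (9.51 to 9.81). Among the psoas arrays on high feeding, animal 6 lay below the other 3 for 1 probe set of PSMC2 (10.48, others 11.00 to 11.07) and for PSMG3 (6.31, others 6.55 to 6.58). For 1 probe set of PSMF1 the diaphragm array of animal 1 on high feeding was low (7.16, others 7.73 to 7.81) and that of animal 8 under restriction was high (7.91, others 7.26 to 7.35).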

How the results depend on the processing

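With the animal as a block, which the labels' pairing supports, limma called 10 of the 46 probe sets between the muscles (6 higher and 4 lower in psoas), adding PSMC5, PSMD5 and PSME4 to the 7, and 2 under restriction (PSME3 higher, PSMB3 lower) in place of 1. In the same fits 33.5% and 16.7% of all tested probe sets were called, so the proteasome shares of 21.7% and 4.35% stayed below them. The block changed no other count of calls. Between the muscles the count was 4 to 6 when 1 animal was left out and 0 with animals 4, 6, 7 and 8 alone. It was 5 with no filter, 8 with the stricter filter or the trended robust variance (both adding PSMC5), 7 with quantile normalization (without PSMB10, with PSMD5), 6 without covariates, and 5 with the actin covariate (without PSMB3, PSMB10 and PSMD8, with PSMF1). Under restriction it was 0 with no filter and 0 to 2 when 1 animal was left out, with PSMB3 added without animal 8. PSMB8 and PSME3 passed between the muscles under 16 of 17 alternatives, the exception being animals 4, 6, 7 and 8 alone. The uncalled difference of PSME2 between the muscles turned to -0.010 without animal 5, within a range of -0.010 to 0.075 when 1 animal was left out. The counts for feeding, feeding within each muscle, muscle by feeding, muscle at high feeding and sex were 0 under every alternative run. The median over the 46 stayed between -0.31 and -0.12 for feeding, and for the muscles between 0.01 and 0.13. Of 611 alternative values, 40 were classed as weaker (a lost call or a much lower count), 2 as stronger and 1 as reversed. The others were classed as the same, a class that allowed limited changes of a count or of a median. It took in the 10 calls between the muscles in place of 7, and the sex median, which changed sign without animal 6. Low signal limits PSMB8, PSMB10 and PSMD10, whose mean levels lay closest to the filter value. PSMB3, measured by 1 probe set, also fell to 5.71 in diaphragm and 5.45 in psoas on single arrays. Its means of 7.10 and 6.27 lay below those of every other constitutive beta subunit measured, of which PSMB5 was the lowest at 9.52 and 9.49.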
